A study of Mus musculus with 16 samples.

Results

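The actin and tubulin cytoskeleton genes were taken from the array's gene list by their symbols. The rule matched the subunits of the Arp2/3 complex, the actin-related genes of dynactin, capping proteins, thymosins, tropomyosins, coronins, myosin light chains and profilins. It also matched the alpha, beta and gamma tubulins, and the single genes Actb, Cfl1, Cfl2, Vim, Msn, Was, Lcp1, Flna and Stmn1. It found 56 of 18138 genes, of which 35 formed the actin group and 16 the tubulin group. The other 5 were Vim, Stmn1 and the dynactin genes Actr1a, Actr1b and Actr10. The rule reads symbols alone, and the families in it were chosen with earlier results of these data known. Further symbols that the rule could match, such as Actg1 and Ezr, were not analysed here.

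Actin is held as monomers and built into filaments. The Arp2/3 complex branches these filaments, capping proteins stop their growth, tropomyosins and coronins coat them, and cofilin cuts them. Microtubules are built from dimers of alpha and beta tubulin and are nucleated by gamma tubulin. When a T cell meets antigen, actin filaments spread and flow inward at the contact site, and the microtubule organising centre turns towards it. Akt is a kinase that acts downstream of the antigen receptor and CD28.

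The cells were D10, a mouse Th2 cell line, in the form of a fast-growing variant of 1 clone, kept in medium with recombinant human IL-2. Control cells had no inhibitor. The methods call them untreated and the results name a solvent. The other cells received 10 µM Akti1/2, an allosteric inhibitor of Akt1 and Akt2, for 1 h, and both were then stimulated with biotinylated antibodies to CD3 and CD28 plus streptavidin. There were 8 groups of 2 arrays: control at 0, 2, 6 and 12 h, and Akti1/2 at 0, 2, 6 and 12 h. Whether the duplicates were separate cultures is not stated, so the p-values measure the spread between these samples, which may be technical. The data are from bulk RNA, in which fewer cells that express a gene and less of its RNA per cell cannot be told apart.

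Before normalisation, the mean intensity of the 16 arrays ran from 394 to 544. It was lowest on the 2 arrays of Akti1/2 cells at 2 h (414 and 394). Between 6288 and 6907 genes per array were above background, which means that under 1% of the negative control beads were as bright (detection p under 0.01). The same 2 arrays had the most such genes, 6907 and 6796. All 8 T helper markers examined, among them Cd3e and Gata3, were above background on at least 2 arrays and 7 on all. The other, Cd4, was dim, above background on 13 arrays at intensities from 144.4 to 217.4. Of 13 markers of B cells, antigen-presenting cells, cytotoxic T cells and fibroblasts in the table, none was above background on 2 arrays, and Ms4a1 was so on 1. Levels are given as log2 intensity after background correction and quantile normalisation, each gene read by its own probes, so that levels of different genes are not compared. Differences are given on the log2 scale with their standard error (SE). A difference was called at an adjusted p under 0.05 by limma with Benjamini-Hochberg adjustment over the 7395 genes that passed background on 2 or more arrays.

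Of the 56 genes, 44 passed the filter and were tested: 28 of the actin group, 11 of the tubulin group and the other 5. Of these 44, 40 were above background on all 16 arrays. The 12 genes not above background on any array were Actr2, Capza2, Capza3, Cfl2, Myl6b, Pfn2, Tpm2, Tuba3a, Tuba8, Tubb1, Tubb2a and Tubb3, so that of the paralogs Cfl1 and Cfl2, and of Pfn1 and Pfn2, only the former was tested. The 4 genes above background on some arrays were Actr3b, Tuba3b, Tuba4a and Tubb4. Some symbols are older ones. Tuba6 is now Tuba1c, Tubb2c is Tubb4b and Tubb4 is Tubb4a. Tubulin genes are near copies of each other, and which part of the transcript each probe reads is not given in the sources used here, so shared signal between them cannot be told apart.

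Promoter sequences were available for 36 of the 44 genes tested, as windows from 250 bases before to 50 bases after the transcription start (RefSeq, GRCm38.p6). They are shown for genes that the results below turn on: Cfl1, Tuba6 and Arpc4, which were lower with Akti1/2, and Vim, which was higher. Capitals mark CCAAT or its reverse complement ATTGG and, in Arpc4, the CArG box, a site that serum response factor binds. Cfl1 lies at chr19:5490205-5490504 (+), Tuba6 at chr15:99029641-99029940 (+), Arpc4 at chr6:113377863-113378162 (+) and Vim at chr2:13574061-13574360 (+).
Cfl1: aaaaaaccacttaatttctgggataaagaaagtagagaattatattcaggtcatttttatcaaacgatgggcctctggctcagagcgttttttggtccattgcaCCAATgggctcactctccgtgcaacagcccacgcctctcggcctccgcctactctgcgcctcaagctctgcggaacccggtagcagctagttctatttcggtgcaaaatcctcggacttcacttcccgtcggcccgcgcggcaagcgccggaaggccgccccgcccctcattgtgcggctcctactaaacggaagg
Tuba6: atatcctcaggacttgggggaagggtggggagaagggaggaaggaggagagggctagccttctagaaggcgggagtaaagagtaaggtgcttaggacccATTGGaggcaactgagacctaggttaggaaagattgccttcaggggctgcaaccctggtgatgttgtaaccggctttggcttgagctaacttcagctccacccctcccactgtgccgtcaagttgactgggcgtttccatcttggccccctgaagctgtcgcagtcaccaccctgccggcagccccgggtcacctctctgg
Arpc4: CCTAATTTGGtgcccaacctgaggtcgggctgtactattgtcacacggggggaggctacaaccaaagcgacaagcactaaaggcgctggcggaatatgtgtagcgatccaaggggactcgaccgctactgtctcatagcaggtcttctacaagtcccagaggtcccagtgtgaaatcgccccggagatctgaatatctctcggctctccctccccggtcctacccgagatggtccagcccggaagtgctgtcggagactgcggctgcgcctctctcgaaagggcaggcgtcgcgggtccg
Vim: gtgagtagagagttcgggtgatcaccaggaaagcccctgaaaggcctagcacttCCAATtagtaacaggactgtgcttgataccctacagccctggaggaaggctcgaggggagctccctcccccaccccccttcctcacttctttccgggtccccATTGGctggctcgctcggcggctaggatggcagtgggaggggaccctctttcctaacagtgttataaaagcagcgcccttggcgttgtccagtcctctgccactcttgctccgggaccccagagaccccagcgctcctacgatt
On either strand, CCAAT occurred in 13 of the 36 windows and in 37.4% of all 32851 promoter windows. By group it occurred in 5 of 24 actin windows and 5 of 8 tubulin windows. The CArG box occurred in 2 of the 36, Arpc4 and Myl6, and in 1.63% of all windows.

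Nearly all of the genes tested varied over the experiment. By the moderated F-test of limma over the 8 groups, 39 of 44 were called, against 77% of all genes tested. All 11 tubulin genes and 25 of 28 actin genes were called. The 5 not called were Actr3b, Arpc3, Arpc5l, Actr10 and Actr1b. Between the replicate arrays of a group, each gene's median absolute log2 difference was 0.112 in the median gene of the 44 and highest in Stmn1, at 0.655.

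Both groups of genes were lower with Akti1/2 from 6 h on, and the tubulin group was lower by 2 h. At 2 h the actin group was lower by little in its mean and by more in its median. Averaged over the 28 actin genes, the log2 level in control cells was 10.61 at 0 h, 10.62 at 2 h, 10.59 at 6 h, then 10.41 at 12 h. In the presence of Akti1/2 it was 10.53, 10.55, 10.33 and 10.16. The difference with Akti1/2 was thus -0.07 at 0 and 2 h, -0.26 at 6 h and -0.25 at 12 h, and the arrays did not overlap at any of these times. At 2 h the arrays overlapped in these means without background correction and with arrays scaled to the same 75th percentile. The median over the 28 genes at 2 h was 10.745 and 10.675 in control and 10.428 and 10.596 in Akti1/2 cells. At 6 h it was 10.627 and 10.647 in control and 10.516 and 10.390 in Akti1/2 cells.

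Averaged over the 11 tubulin genes, the log2 level in control cells was 10.34 at 0 h, 10.24 at 2 h, 10.12 at 6 h, then 10.12 at 12 h. In Akti1/2 cells it was 10.32, 9.94, 9.62 and 9.62. The arrays overlapped at 0 h and were apart from 2 h on, with a difference of -0.31 at 2 h, -0.50 at 6 h and -0.50 at 12 h. Over the 4 scalings, the tubulin difference ran from -0.20 to -0.31 at 2 h, from -0.35 to -0.50 at 6 h and from -0.36 to -0.50 at 12 h. The actin difference ran from -0.035 to -0.102 at 0 h, from -0.032 to -0.141 at 2 h, from -0.23 to -0.26 at 6 h and from -0.21 to -0.28 at 12 h. The tubulin medians in control cells did not show the fall of the means. They were 10.199 and 10.535 at 0 h, 10.53 and 10.659 at 2 h, 10.399 and 10.386 at 6 h, then 10.427 and 10.622 at 12 h. With Akti1/2 they were 10.525 and 10.24, 9.915 and 9.928, 9.392 and 9.226, then 10.011 and 10.063, below control after 0 h. These means and medians describe the lists and carry no test.

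**Figure D1:**
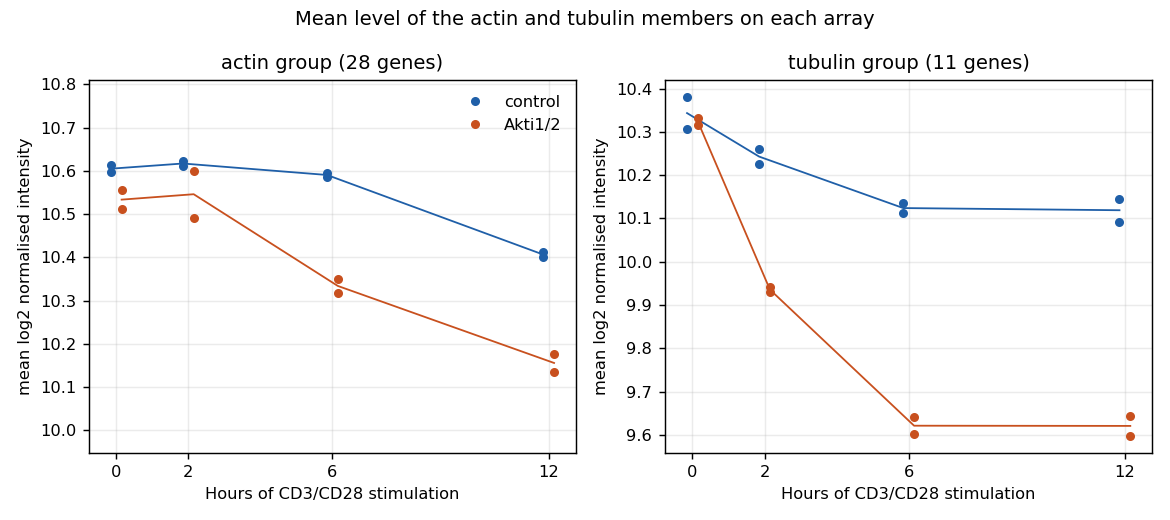
Mean log2 normalised intensity over the 28 actin genes (left) and 11 tubulin genes (right) on each array against hours of CD3/CD28 stimulation. Points are arrays (2 per group), lines join group means, blue is control and orange Akti1/2. The panels have different offsets and the same span. The tubulin means are apart from 2 h on.

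In control cells, the genes called after stimulation alone mostly fell. The share called in both directions together was near or below that over all genes tested. At 12 h the share that fell was above that of all genes. At 2 h, 2 of 44 fell and none rose, where over all genes tested 4.42% rose and 5.86% fell. By 6 h, 2 had risen and 7 fallen (12.1% and 15.4% of all genes), and by 12 h none had risen and 11 fallen (12.7% and 15.1%). At an unadjusted p under 0.05, 17 of the 44 differed at 12 h. The share of all genes at that threshold is not given here, so this count shows no excess. The median log2 change over the 44 was -0.15 at 12 h and that of all genes -0.01. Of the actin genes 6 of 28 fell at 12 h (median -0.15), and of the tubulins 4 of 11 (median -0.35).

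Vim, the intermediate filament protein vimentin, fell most in control cells at 12 h. Its log2 level was 13.14 and 13.03 at 0 h, 13.01 and 12.89 at 2 h, 12.41 and 12.43 at 6 h, then 11.32 and 11.38 at 12 h. The change was -0.67 (SE 0.13, adjusted p = 0.00225) at 6 h and -1.74 (SE 0.13, adjusted p = 1.29e-06) at 12 h, or 3.34-fold lower. The 2 arrays at 12 h lay below all the others of the control cells.

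The coronins also fell in control cells. Coro1a, the coronin of blood cells, was at 12.69 and 12.71 at 0 h, 12.65 and 12.61 at 2 h, 12.43 and 12.34 at 6 h, then 11.99 and 11.96 at 12 h, a change of -0.72 at 12 h (SE 0.11, adjusted p = 3.62e-04). Coro1b, a coronin of many tissues that acts on Arp2/3, was 9.90 and 9.91 at 0 h, 9.69 and 9.72 at 2 h, 9.18 and 9.30 at 6 h, then 9.15 and 8.93 at 12 h, a change of -0.86 at 12 h (SE 0.12, adjusted p = 1.98e-04). Coro1c changed at 6 h (-0.39, adjusted p = 0.0293) and was not called at 12 h (-0.22, adjusted p = 0.194).

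Cfl1, which encodes cofilin 1, moved both ways in control cells. It rose at 6 h by 0.39 (SE 0.13, adjusted p = 0.0390) and lay below its starting level at 12 h, with a change of -0.65 (adjusted p = 0.00238). Tpm1, a tropomyosin, also rose at 6 h (0.32, adjusted p = 0.0431). Both rises were lost in some settings, 7 of 24 for Cfl1 and 13 for Tpm1. At 12 h, Cap1 (-0.60), which recycles actin monomers, Capza1 (-0.45), a capping protein subunit, and Arpc1a (-0.40), an Arp2/3 subunit, fell too.

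Among the tubulins of control cells, Tubg1, the gamma tubulin that nucleates microtubules, fell by 0.72 at 6 h (adjusted p = 0.00549). Tuba1a changed by -0.62 at 12 h, Tuba6 by -0.49, Tubb2c by -0.40 and Tubb2b by -0.38. Tuba1b (-0.01), Tubb5 (-0.15) and Tubb6 (0.16) were not called. At 2 h the genes that fell were Actr1a (-0.45, adjusted p = 0.0490), the actin-like core of dynactin, and Tuba4a (adjusted p = 0.0283), which was not above background at 2 h. Neither was called at 6 or 12 h.

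With Akti1/2 present, more of these genes changed, as did more of all genes tested. Over all genes, the number called was 760 in control and 2863 in Akti1/2 cells at 2 h. It was 2038 and 2465 at 6 h, and 2055 and 3288 at 12 h. At 2 h, 3 of 44 rose and 14 fell from 0 h, where over all genes tested 17.8% rose and 20.9% fell. By 6 h, 1 had risen and 19 fallen (15.5% and 17.9% of all genes), and by 12 h 4 had risen and 27 fallen (21.1% and 23.3%). The median log2 change at 12 h was -0.47 over the 44 genes, -0.45 over the actin group, -0.65 over the tubulin group and -0.04 over all genes. Of the 11 tubulins 9 fell and 1 rose, and of the 28 actin genes 18 fell and 3 rose.

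Cfl1 changed most with Akti1/2, by -2.39 at 12 h (SE 0.13, adjusted p = 4.39e-08), or 5.25-fold lower than at 0 h. Without background correction the change of Cfl1 was -1.25, smaller than those of Tuba6 and Tubb6 in that setting. Tubb6, a beta tubulin, changed by -1.98 at 6 h and -1.72 at 12 h, and Tuba6, an alpha tubulin, by -1.64 at 12 h. The 4 genes that rose at 12 h were Tpm1 (1.04, adjusted p = 9.65e-06), Tubb2b (0.77, adjusted p = 7.41e-05), the crosslinker filamin A (Flna, 0.65, adjusted p = 0.00880) and Actr3b (0.58, adjusted p = 0.0301), another form of the Arp3 subunit. Actr3b was above background on 1 of 2 arrays at 0 h, and its change ran from 0.21 without background correction to 0.88 without Akti1/2 replicate 2 at 0 h.

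At 2 h with Akti1/2 a different set rose. Was, the activator of Arp2/3 in blood cells, was at 10.75 and 10.85 at 0 h, 11.58 and 11.84 at 2 h, 10.80 and 11.35 at 6 h, then 10.53 and 10.40 at 12 h. Its level peaked at 2 h, above all other Akti1/2 arrays (0.91, adjusted p = 0.00110). Msn, which encodes moesin, a link between actin and the membrane, changed by 0.78 (adjusted p = 0.00154), and Actr3, the Arp3 subunit, by 0.58 (adjusted p = 0.0150), from 10.89 and 10.66 at 0 h to 11.40 and 11.32 at 2 h. At 12 h none of these was called against 0 h. The largest falls at 2 h were those of Tubg1 (-1.23), Actr1a (-1.12) and Tuba6 (-0.93).

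Before stimulation, no member differed between Akti1/2 and control cells by limma, where 0.0406% of all genes tested were higher and 0.0135% lower. At an unadjusted p under 0.05, 3 members differed, a count given without the share of all genes at that threshold, so it shows no excess. The largest difference was that of Coro1c (-0.35, adjusted p = 0.831). The median over the 44 genes was -0.06 and that of all genes -0.002.

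During stimulation, the genes lower with Akti1/2 outnumbered those higher at each time. At 2 h, 2 of 44 were higher and 12 lower, where over all genes tested 13.5% were higher and 14.9% lower. At 6 h, 3 were higher and 15 lower (18.8% each way over all genes). At 12 h, 5 were higher and 19 lower (24.2% and 24.8% of all genes). The median log2 difference at 12 h was -0.24 over the 44 genes, -0.24 over the actin group, -0.56 over the tubulin group and -0.02 over all genes. By group at 12 h, 3 actin genes were higher and 12 lower, and 1 tubulin was higher and 7 lower. These comparisons share their arrays with the changes from 0 h above.

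**Figure D2:**
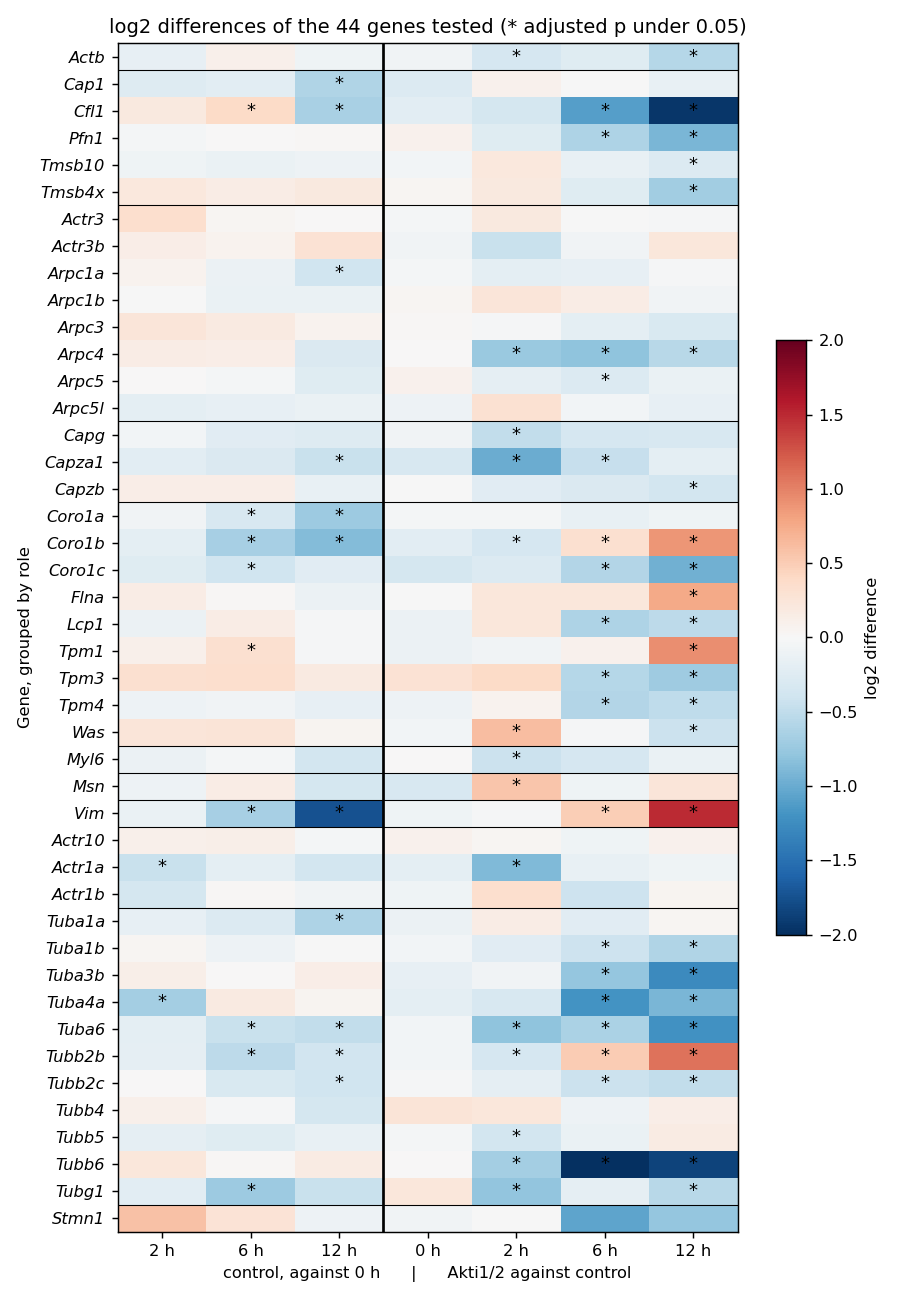
Log2 differences of the 44 genes tested (rows, grouped by role), for control cells at 2, 6 and 12 h against 0 h (left of the line) and for Akti1/2 against control cells at 0, 2, 6 and 12 h (right). Red is higher and blue lower, the colour scale ends at 2 on either side, and asterisks mark adjusted p under 0.05. At 12 h, 19 genes were lower and 5 higher with Akti1/2.

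Whether stimulation acted differently with the inhibitor was tested as an interaction, the change from 0 h with Akti1/2 minus that without. At 2 h, 1 member had a positive and 5 a negative interaction, where over all genes tested 4.23% were positive and 4.16% negative. At 6 h, 3 were positive and 7 negative (10.3% and 9.24% of all genes). At 12 h, 5 were positive and 13 negative (16.3% and 16.2% of all genes). Of the 18 at 12 h, 10 were in the actin group, 7 in the tubulin group, and Vim was the other. The 10 that kept their call in all 24 other settings were Cfl1, Coro1b, Pfn1, Tpm1, Tpm3, Tuba1b, Tuba6, Tubb2b, Tubb6 and Vim. At 6 h these were 4 of 10 (Arpc4, Cfl1, Pfn1 and Tubb6), and at 2 h 0 of 6.

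Among the actin monomer genes and the proteins that turn filaments over, the signal with Akti1/2 was lower at 12 h in every gene called. The log2 level of Cfl1 in control cells was 8.34 and 8.47 at 0 h, 8.50 and 8.69 at 2 h, 8.75 and 8.83 at 6 h, then 7.83 and 7.66 at 12 h. Under Akti1/2 it was 8.25 and 8.13 at 0 h, 8.28 and 8.22 at 2 h, 7.55 and 7.83 at 6 h, then 5.89 and 5.70 at 12 h. The arrays with Akti1/2 lay below the control arrays at each time, and at 12 h Cfl1 was 3.87-fold lower. The interaction was -0.89 at 6 h (SE 0.18, adjusted p = 0.00495) and -1.74 at 12 h (SE 0.18, adjusted p = 3.40e-05). Without background correction the difference from control at 12 h was -0.95 and the interaction -0.80, both still called.

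Pfn1, the profilin that feeds monomers to growing ends, was level in control cells, at 12.39 and 12.44 at 0 h, 12.41 and 12.34 at 2 h, 12.44 and 12.41 at 6 h, then 12.47 and 12.40 at 12 h. With Akti1/2 its log2 level was 12.49 and 12.52 at 0 h, 12.05 and 12.22 at 2 h, 11.84 and 11.77 at 6 h, then 11.36 and 11.68 at 12 h. The groups did not overlap at any time, Akti1/2 being above control at 0 h and below it at the later times, and at 12 h Pfn1 was 1.89-fold lower. The interaction was -0.71 at 6 h (adjusted p = 0.0104) and -1.00 at 12 h (SE 0.16, adjusted p = 6.75e-04).

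Tmsb4x, the thymosin that holds actin monomers in reserve, was at 14.44 and 14.57 at 0 h, 14.76 and 14.66 at 2 h, 14.83 and 14.46 at 6 h, then 14.68 and 14.72 at 12 h in control cells. With Akti1/2 it was at 14.57 and 14.52 at 0 h, 14.89 and 14.93 at 2 h, 14.11 and 14.68 at 6 h, then 14.01 and 13.99 at 12 h. Only at 12 h did the Akti1/2 arrays lie below both control arrays by a called difference (-0.70, 1.62-fold). The interaction at 12 h (-0.74, adjusted p = 0.0297) lost its call in 11 of 24 settings. Tmsb10 was lower at 12 h by 1.22-fold (adjusted p = 0.0381), and Cap1 was not called (-0.15).

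Actb, which encodes beta actin and is often used as a reference gene, was at 12.36 and 12.35 at 0 h, 12.17 and 12.20 at 2 h, 12.40 and 12.51 at 6 h, then 12.34 and 12.19 at 12 h in control cells. In the presence of Akti1/2 it was at 12.13 and 12.42 at 0 h, 11.83 and 11.88 at 2 h, 12.24 and 12.18 at 6 h, then 11.71 and 11.68 at 12 h. The groups overlapped at 0 h and were apart at 2, 6 and 12 h. Actb was 1.26-fold lower at 2 h (adjusted p = 0.0410), was not called at 6 h (-0.24, adjusted p = 0.106), and was 1.48-fold lower at 12 h (adjusted p = 0.00112). The interaction at 12 h was -0.49 (SE 0.16, adjusted p = 0.0311) and lost its call in 7 of 24 settings, 6 of which left out 1 array.

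Of the 8 Arp2/3 genes tested, Arpc4 was lower with Akti1/2 at all 3 times of stimulation and Arpc5 at 6 h (-0.27, adjusted p = 0.0490). Arpc4, a subunit of the core of the complex, was at 9.58 and 9.50 at 0 h, 9.64 and 9.74 at 2 h, 9.65 and 9.69 at 6 h, then 9.21 and 9.28 at 12 h in control cells. With Akti1/2 its log2 level was 9.65 and 9.45 at 0 h, 9.04 and 8.87 at 2 h, 8.87 and 8.87 at 6 h, then 8.77 and 8.60 at 12 h. After 0 h every Akti1/2 array lay below the control arrays of its time, by 1.67-fold at 2 h, 1.74-fold at 6 h and 1.47-fold at 12 h. The interactions were -0.75, -0.81 and -0.57 (adjusted p = 0.0150, 0.00388 and 0.0147). Actr3, Actr3b, Arpc1a, Arpc1b, Arpc3 and Arpc5l were not called against control at 2, 6 or 12 h.

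The capping protein subunit Capza1 stood out at 2 h. In control cells it was at 9.31 and 9.23 at 0 h, 8.98 and 9.14 at 2 h, 8.83 and 9.13 at 6 h, then 8.89 and 8.75 at 12 h. In Akti1/2 cells it was at 8.95 and 8.96 at 0 h, 8.04 and 8.11 at 2 h, 8.68 and 8.37 at 6 h, then 8.67 and 8.59 at 12 h. It was 1.98-fold lower at 2 h (adjusted p = 3.40e-04), 1.38-fold lower at 6 h (a log2 difference of -0.46, or -0.31 and not called without Akti1/2 replicate 2), and not called at 12 h (-0.19, adjusted p = 0.266). The interaction at 2 h was -0.67 (adjusted p = 0.0483) and was lost in 17 of 24 settings. Its partner Capzb was lower at 12 h (-0.37, adjusted p = 0.0163), and Capg, a cap of the gelsolin family, at 2 h (-0.49, adjusted p = 0.0173).

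The coronins and the tropomyosins split by family member. Coro1b with Akti1/2 was at 9.74 and 9.63 at 0 h, 9.44 and 9.29 at 2 h, 9.67 and 9.46 at 6 h, then 9.97 and 9.87 at 12 h, against the falling control levels given above. It was 1.26-fold lower than control at 2 h and 1.84-fold higher at 12 h (adjusted p = 6.18e-05), with no overlap of the arrays. Its interaction was 0.54 at 6 h and 1.10 at 12 h (SE 0.17, adjusted p = 3.82e-04).

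Coro1c went the other way. Its log2 level was 10.89 and 11.01 at 0 h, 10.75 and 10.65 at 2 h, 10.45 and 10.66 at 6 h, then 10.80 and 10.65 at 12 h in control cells. Under Akti1/2 it was 10.58 and 10.62 at 0 h, 10.41 and 10.46 at 2 h, 10.11 and 9.84 at 6 h, then 9.75 and 9.76 at 12 h, and it was 1.96-fold lower at 12 h. The Akti1/2 arrays lay below the control arrays also at 0 h, and the interaction at 12 h was -0.62 (adjusted p = 0.0149), lost without control replicate 1 at 0 h or at 12 h. Coro1a fell with and without Akti1/2 (to 11.97 and 11.81 at 12 h with it) and was not called between them at 12 h (-0.09, SE 0.11, adjusted p = 0.531).

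Tpm1 in control cells was at 10.26 and 10.22 at 0 h, 10.39 and 10.29 at 2 h, 10.58 and 10.54 at 6 h, then 10.18 and 10.26 at 12 h. With Akti1/2 it was at 10.20 and 10.03 at 0 h, 10.21 and 10.34 at 2 h, 10.61 and 10.67 at 6 h, then 11.07 and 11.25 at 12 h. At 12 h both Akti1/2 arrays lay above all other arrays, 1.91-fold over control, with an interaction of 1.06 (SE 0.15, adjusted p = 2.84e-04).

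Tpm3 was at 9.64 and 9.54 at 0 h, 10.00 and 9.84 at 2 h, 10.00 and 9.85 at 6 h, then 9.59 and 9.94 at 12 h in control cells. In the presence of Akti1/2 it was at 9.81 and 9.94 at 0 h, 10.22 and 10.39 at 2 h, 9.18 and 9.53 at 6 h, then 8.82 and 9.27 at 12 h. It was above control at 0 and 2 h and below it at 6 and 12 h, the differences called being those at 6 h (1.48-fold lower) and 12 h (1.65-fold lower). The interaction was -0.86 at 6 h and -1.00 at 12 h (SE 0.25, adjusted p = 0.00791). Tpm4 was lower with Akti1/2 at 12 h by 1.43-fold (adjusted p = 0.00507), without a called interaction (-0.41, adjusted p = 0.100).

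**Figure D3:**
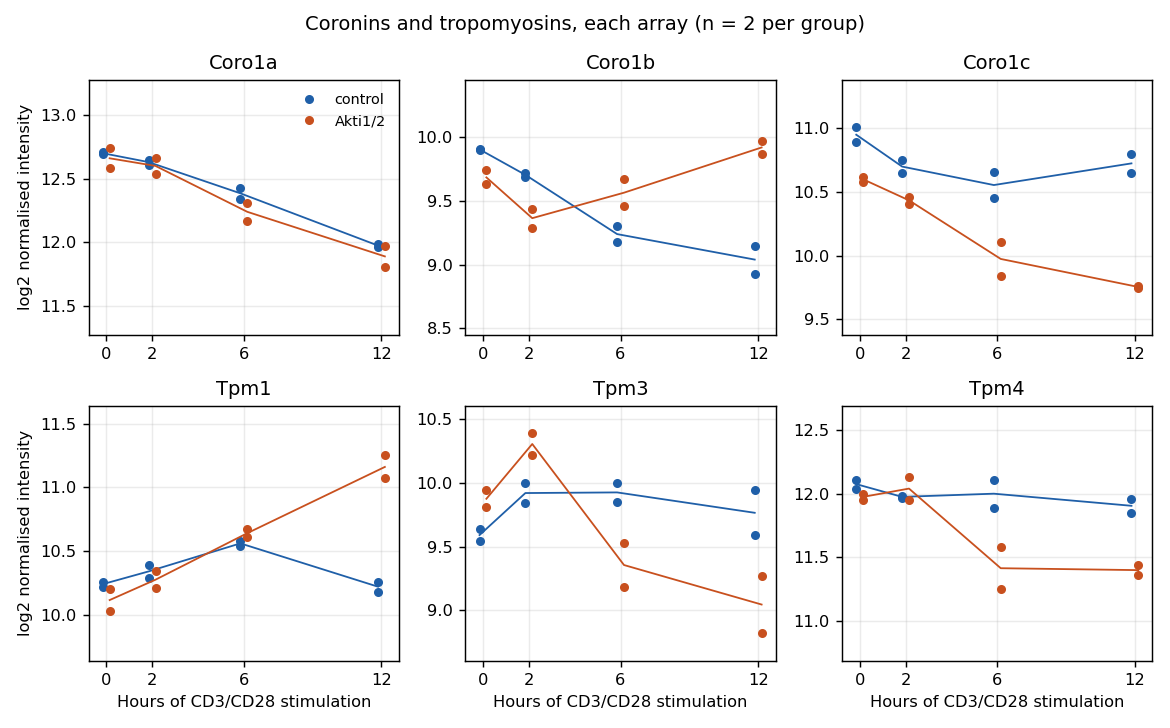
Log2 normalised intensity of 3 coronins and 3 tropomyosins on each array against hours of CD3/CD28 stimulation. Points are arrays (2 per group), lines join group means, blue is control and orange Akti1/2, and each panel has its own offset. At 12 h Coro1b and Tpm1 were above control with Akti1/2, and Coro1c, Tpm3 and Tpm4 below.

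Of the other filament-binding genes, Flna was at 7.71 and 7.84 at 0 h, 7.99 and 7.85 at 2 h, 7.74 and 7.85 at 6 h, then 7.66 and 7.67 at 12 h in control cells. In Akti1/2 cells it was at 7.77 and 7.77 at 0 h, 7.81 and 8.50 at 2 h, 7.99 and 8.06 at 6 h, then 8.34 and 8.50 at 12 h, 1.69-fold higher at 12 h (adjusted p = 0.00309). The arrays of the 2 h Akti1/2 cells lay far apart. The interaction at 12 h was 0.77 (adjusted p = 0.0305) and was lost in 8 of 24 settings.

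Lcp1, the bundling protein L-plastin, was lower with Akti1/2 by 1.53-fold at 6 h and 1.43-fold at 12 h. Was, at 10.83 and 10.86 at 0 h, 11.07 and 11.11 at 2 h, 11.20 and 10.99 at 6 h, then 10.91 and 10.87 at 12 h in control cells, was 1.53-fold higher with Akti1/2 at 2 h (adjusted p = 0.0135) and 1.35-fold lower at 12 h (adjusted p = 0.0415). Myl6, the light chain of non-muscle myosin, was lower at 2 h (-0.43, adjusted p = 0.0395) and not called later.

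Msn was at 10.10 and 9.89 at 0 h, 9.93 and 9.87 at 2 h, 10.15 and 10.12 at 6 h, then 9.66 and 9.63 at 12 h in control cells. Under Akti1/2 it was at 9.53 and 9.82 at 0 h, 10.25 and 10.67 at 2 h, 10.04 and 10.05 at 6 h, then 9.97 and 9.80 at 12 h. It was 1.47-fold higher than control at 2 h (a log2 difference of 0.56, or 0.35 and not called without Akti1/2 replicate 2), and its interaction at that time was 0.88 (adjusted p = 0.0234), the one positive interaction of a member at 2 h, lost in 6 of 24 settings. At 6 and 12 h it was not called.

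Vim, which had fallen in control cells, hardly moved with Akti1/2. Its log2 level there was 13.03 and 12.96 at 0 h, 12.95 and 12.90 at 2 h, 13.08 and 12.74 at 6 h, then 12.96 and 12.71 at 12 h. No change from 0 h was called, and at 12 h both Akti1/2 arrays were above both control arrays, 2.80-fold in the means (adjusted p = 2.13e-06). The interaction was 1.58 at 12 h (SE 0.18, adjusted p = 6.83e-05). At 6 h it was 0.58 (adjusted p = 0.0400) and was lost in 13 of 24 settings.

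Among the beta tubulins, Tubb6 and Tubb2b parted. Tubb6 in control cells was at 10.20 and 10.54 at 0 h, 10.53 and 10.66 at 2 h, 10.40 and 10.39 at 6 h, then 10.43 and 10.62 at 12 h. With Akti1/2 it was at 10.52 and 10.24 at 0 h, 9.91 and 9.93 at 2 h, 8.19 and 8.62 at 6 h, then 8.72 and 8.62 at 12 h. The groups overlapped at 0 h and were apart afterwards, Akti1/2 being 1.59-fold lower at 2 h, 3.97-fold at 6 h and 3.63-fold at 12 h. The interaction was -2.00 at 6 h (SE 0.23, adjusted p = 1.75e-04) and -1.87 at 12 h (SE 0.23, adjusted p = 9.24e-05), the lowest of all members at both times.

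Tubb2b in control cells was at 9.27 and 9.39 at 0 h, 9.21 and 9.07 at 2 h, 8.77 and 8.82 at 6 h, then 8.95 and 8.95 at 12 h. In the presence of Akti1/2 it was at 9.22 and 9.32 at 0 h, 8.80 and 8.82 at 2 h, 9.39 and 9.23 at 6 h, then 10.01 and 10.06 at 12 h. It was lower than control at 2 h (-0.33) and higher at 6 h (0.51) and 12 h (1.09, adjusted p = 3.96e-06), with an interaction of 1.14 at 12 h (SE 0.14, adjusted p = 1.24e-04). It was the 1 tubulin higher with Akti1/2 at 6 and 12 h. Tubb5 was lower at 2 h (-0.36) and not called at 12 h (0.16, adjusted p = 0.239), while Tubb2c was lower at 12 h by 1.41-fold (adjusted p = 0.00483).

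Of the alpha tubulins, Tuba6 was at 12.28 and 12.21 at 0 h, 12.10 and 12.01 at 2 h, 11.74 and 11.86 at 6 h, then 11.64 and 11.86 at 12 h in control cells. In Akti1/2 cells it was at 12.29 and 12.08 at 0 h, 11.20 and 11.31 at 2 h, 11.29 and 11.05 at 6 h, then 10.47 and 10.62 at 12 h. After 0 h the Akti1/2 arrays lay below the control arrays at each time, by 1.74-fold, 1.54-fold and 2.30-fold in turn. The interactions were -0.74, -0.57 and -1.15 (adjusted p = 0.0261, 0.0414 and 4.82e-04).

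Tuba1b was at 14.80 and 14.86 at 0 h, 14.89 and 14.83 at 2 h, 14.73 and 14.73 at 6 h, then 14.83 and 14.80 at 12 h in control cells. Under Akti1/2 it was at 14.80 and 14.76 at 0 h, 14.61 and 14.66 at 2 h, 14.29 and 14.34 at 6 h, then 14.19 and 14.23 at 12 h. It was 1.52-fold lower at 12 h, without overlap, and its interaction was -0.56 (SE 0.13, adjusted p = 0.00512). Tuba1a fell with and without Akti1/2 and was not called between them at 12 h (0.04, SE 0.13).

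The dim alpha tubulins were lower with Akti1/2 as well. Tuba3b was at 6.47 and 6.80 at 0 h, 6.38 and 7.13 at 2 h, 6.52 and 6.77 at 6 h, then 6.86 and 6.70 at 12 h in control cells. With Akti1/2 it was at 6.31 and 6.62 at 0 h, 6.65 and 6.71 at 2 h, 5.95 and 5.81 at 6 h, then 5.64 and 5.37 at 12 h, with 1 of 2 arrays above background at 12 h, and its interaction at 12 h was -1.10 (adjusted p = 0.0149), or -0.41 without background correction. Tuba4a in control cells was at 5.96 and 5.92 at 0 h, 5.43 and 5.10 at 2 h, 6.32 and 5.93 at 6 h, then 6.08 and 5.92 at 12 h.

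With Akti1/2, Tuba4a was at 5.70 and 5.78 at 0 h, 5.03 and 4.85 at 2 h, 5.02 and 4.84 at 6 h, then 5.31 and 4.88 at 12 h, and it was not well above background on either Akti1/2 array at 2, 6 or 12 h. The control cells were therefore at least 1.45-fold higher at 6 h and at least 1.32-fold higher at 12 h. These bounds carry no test. The limma calls (adjusted p = 2.04e-04 at 6 h and 8.57e-04 at 12 h) are for the full differences, dim values included. Such a bound takes the lowest signal that passed as above background in place of a dimmer value. The interaction calls of Tuba4a at 6 and 12 h rest on the same dim values.

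Tubg1 was at 9.89 and 9.94 at 0 h, 9.77 and 9.64 at 2 h, 9.17 and 9.22 at 6 h, then 9.54 and 9.42 at 12 h in control cells. In the presence of Akti1/2 it was at 10.14 and 10.16 at 0 h, 9.05 and 8.79 at 2 h, 9.31 and 8.73 at 6 h, then 8.98 and 8.86 at 12 h. It reached its lower level by 2 h with Akti1/2, 1.73-fold below control (interaction -1.02, adjusted p = 0.0189), overlapped with control at 6 h, and was 1.47-fold below control at 12 h (interaction -0.79, adjusted p = 0.0182).

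**Figure D4:**
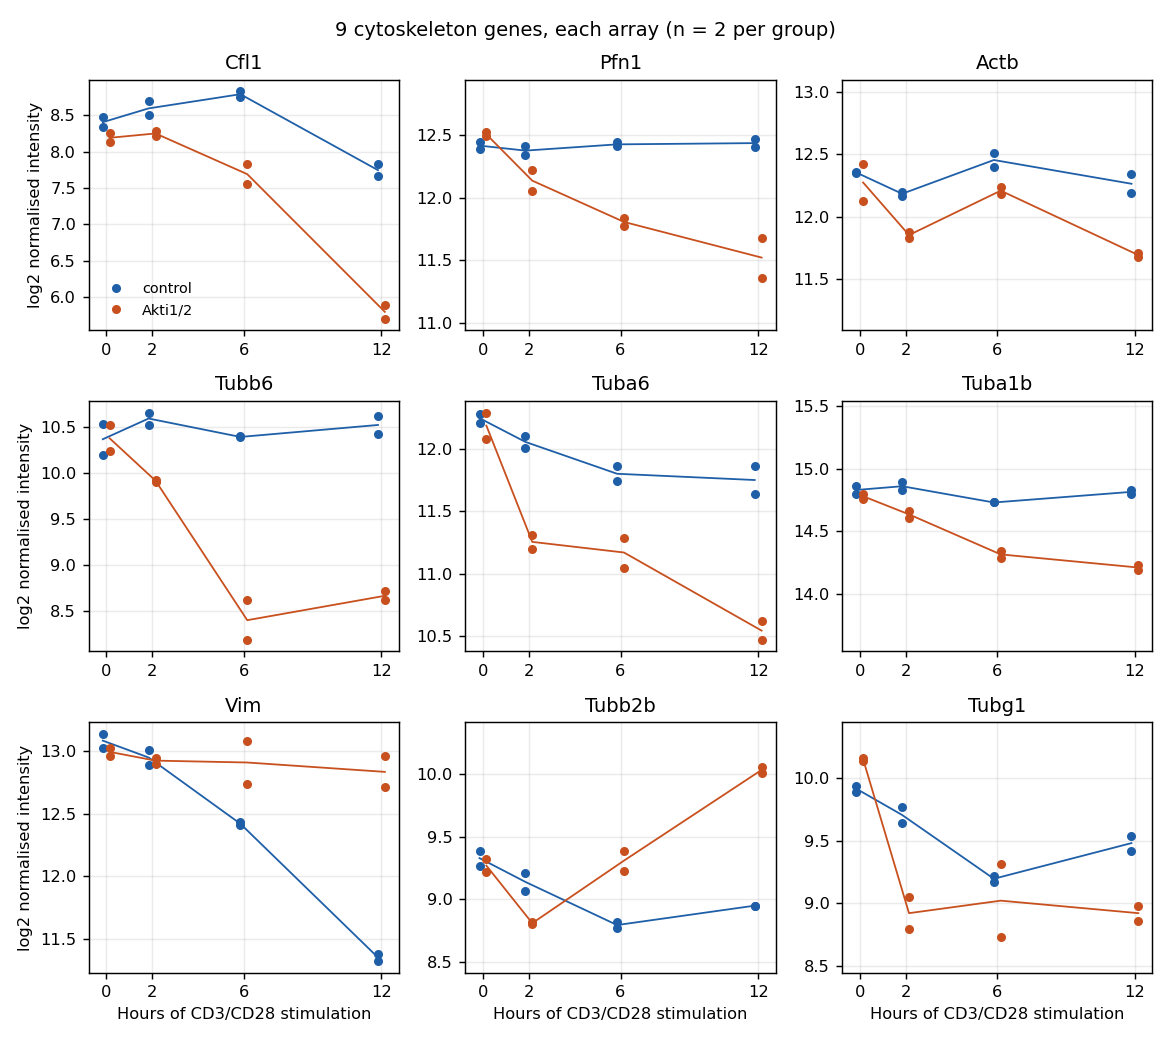
Log2 normalised intensity of 9 genes on each array against hours of CD3/CD28 stimulation. Points are arrays (2 per group), lines join group means, blue is control and orange Akti1/2, and each panel has its own offset and span. Cfl1, Pfn1, Actb and the tubulins Tubb6, Tuba6, Tuba1b and Tubg1 were lower with Akti1/2 at 12 h, and Vim and Tubb2b higher.

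Among the dynactin genes, Actr1a was at 9.89 and 9.98 at 0 h, 9.56 and 9.41 at 2 h, 9.63 and 9.83 at 6 h, then 9.54 and 9.60 at 12 h in control cells. In Akti1/2 cells it was at 9.81 and 9.65 at 0 h, 8.63 and 8.59 at 2 h, 9.74 and 9.44 at 6 h, then 9.58 and 9.37 at 12 h. It was 1.84-fold lower than control at 2 h (adjusted p = 6.45e-04) and not called at 6 or 12 h, with an interaction at 2 h of -0.67 (adjusted p = 0.0423) that was lost in 13 of 24 settings. Actr1b and Actr10 were not called in any comparison. Stmn1, which encodes stathmin, a protein that holds tubulin dimers, was called by the F-test but in no single comparison, its difference with Akti1/2 at 12 h being -0.77 (SE 0.39, adjusted p = 0.123).

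For 3 members the difference between Akti1/2 and control cells was called at both 2 and 12 h, with opposite signs, and a test of the difference between these times was added after the data had been seen. As the 3 were picked by these calls on the same arrays, a called difference between the times was nearly fixed by the selection. Over all genes tested, 31.4% had a called difference between the effect of Akti1/2 at 12 h and at 2 h, and of the 44 members 19 did. Some of the calls at 2 and 12 h were lost in other settings. Coro1b and Tubb2b went from lower to higher than control, and Was from higher to lower.

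Regulators of actin and microtubules outside the rule were counted from lists drawn up for this purpose. Of 40 actin regulators tested, such as WAVE complex subunits, 9 were higher and 8 lower with Akti1/2 than control at 12 h (median 0.02), where 24.2% and 24.8% of all genes were. The interaction at 12 h was positive in 5 and negative in 1 (16.3% and 16.2% of all genes). The positive ones included Abi1 (0.67, adjusted p = 0.0407) and Nckap1l (0.65, adjusted p = 0.0396), both of the WAVE complex. Of the other WAVE genes tested, Cyfip2 (0.87), Wasf2 (0.57), Cyfip1 (0.34), Nckap1 (-0.14) and Abi3 (-0.36) were not called. The negative one was Limk1 (-1.32, SE 0.28, adjusted p = 0.00325), a kinase that phosphorylates cofilin. Limk2, of the same family and list, did not fall with it. With Akti1/2 its log2 level was 7.49 and 7.58 at 0 h and 7.86 and 7.63 at 12 h. In control cells it was 7.39 and 7.44 at 0 h and 7.37 and 7.24 at 12 h.

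Of 29 microtubule genes tested, 10 were higher and 3 lower with Akti1/2 at 12 h (median 0.05), and the interaction was positive in 6 and negative in 3, beside the same shares of all genes as above. The dynactin subunits Dctn2 (1.05, adjusted p = 1.42e-04) and Dctn4 (0.86, adjusted p = 7.47e-04) and the dynein intermediate chain Dync1i2 (0.94, adjusted p = 0.00187) were positive. The dynactin subunits Dctn3, Dctn5 and Dctn6, also tested, lay nearer to control at 12 h. Their log2 levels with Akti1/2 were, in turn, 10.83 and 10.80, 10.06 and 10.18, and 10.54 and 10.66. In control cells they were 10.90 and 10.92, 9.89 and 9.82, and 10.59 and 10.50. The dynein light chain Dynll1 (-1.47, adjusted p = 1.16e-04), the plus-end binding gene Mapre2 (-1.39, adjusted p = 0.00181) and Nudc (-0.52, adjusted p = 0.0238) were negative. In control cells at 12 h, the actin regulators that passed the test were 1 higher and 13 lower than at 0 h, and the microtubule genes 1 higher and 8 lower, where 12.7% of all genes were higher and 15.1% lower.

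The study ranked genes by J5, which scales the difference of 2 group means of untransformed intensity by the average size of that difference among all genes on the array. A threshold of 20 or -20 was applied here at all times. Which threshold the study used at 6 and 12 h is not given in the sources used here. No replicate spread enters J5, so it yields no p-value, and bright genes reach the threshold at smaller fold changes. In control cells, 2 of the 56 genes lay beyond 20 at 2 h, 4 at 6 h and 5 at 12 h, where 0.673%, 0.728% and 0.645% of all genes did. With Akti1/2 the numbers were 5 at 2 h, 7 at 6 h and 7 at 12 h, where 0.662%, 0.667% and 0.855% of all genes did. These shares are of all 18138 genes, of which 10287 were not above background on any array, against 12 of the 56. The counts are thus not set against genes of like brightness.

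By J5, Vim scored -85.3 at 12 h in control cells and -13.4 with Akti1/2. Tuba1b scored -19.0 in control cells and -81.1 with Akti1/2 at 12 h. Tmsb4x scored 33.5 in control cells and -72.2 with Akti1/2 at 12 h, and all 7 genes beyond the threshold with Akti1/2 at 6 h and at 12 h were negative. At 2 h with Akti1/2, 3 of the 5 were positive, namely Tmsb4x (145), Tmsb10 (29.0) and Tuba1b (22.9). On the log2 scale after quantile normalisation the change of Tuba1b at that time was -0.14 and was not called. Cfl1 and Tubb6, both lower with Akti1/2 at 12 h on the log2 scale, were not beyond the threshold in any of the 6 comparisons.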

How the data were processed

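RNA of 16 samples of D10 cells (8 groups, 2 arrays each) was hybridised to 2 Illumina mouse RefSeq chips, each with 1 array of every group. Per the file headers, the intensity values deposited by the authors are neither normalized nor background-subtracted. Each of 18138 genes and 798 negative controls has 1 linear value per array. A separate control table of 15 arrays was left out.

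The detection p of a gene was the fraction of negative controls at least as bright, and genes under 0.01 on at least 2 arrays (7395) were tested. Intensities were corrected on the negative controls (neqc, offset 16), quantile-normalised and put on the log2 scale. All 8 groups were fitted in 1 model with limma 3.58.1 under R 4.3.3 (lmFit, contrasts.fit, eBayes, 8 residual and 4.26 prior degrees of freedom) without covariates, and p-values were adjusted by Benjamini-Hochberg over all genes tested for each comparison. The number of arrays limits the precision. Quantile normalisation gives all arrays the same distribution, so a shift common to all genes cannot be seen.

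The steps were tested on simulated data. Python 3.11.15 with pandas 2.3.3, numpy 2.4.6 and matplotlib 3.10.9 served for tables and figures. Promoter windows came from RefSeq (GRCm38.p6). Levels on every array are given for Actb, for members with a called interaction, and for those with the 3 highest and 3 lowest called changes from 0 h in control or Akti1/2 cells. The members and the lists of regulators and markers were chosen with earlier results of these data known. The alternatives were other background corrections, scalings and filters, a replicate or a chip block, fits of only the groups compared, other J5 settings, and leaving out each array in turn. Replicate 1 of the 12 h control cells shares its chip with replicate 2 of every other group.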

Additional observations from a re-analysis of the deposited data

Results flagged for a closer look

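For 3 members the effect of Akti1/2 differed between 2 and 12 h of stimulation and had opposite signs at these times, each called in the comparison with control cells. For Coro1b the log2 difference from control was -0.34 at 2 h and 0.88 at 12 h, and the difference between the times was 1.22 (standard error 0.165, limma adjusted p = 2.99e-04). For Tubb2b it was -0.33 and 1.09, and the difference was 1.42 (standard error 0.145, adjusted p = 5.98e-05). For Was it was 0.62 and -0.43, and the difference was -1.05 (standard error 0.226, adjusted p = 0.00472). The difference between the times kept its call in all 24 other settings for each gene. The call against control at 2 h was lost in 16 of 24 settings for Coro1b, 4 for Tubb2b and 3 for Was, and at 12 h in 11 for Was and in none for the others. The arrays of the groups did not overlap at either time in any of the 3 genes. Coro1b was below control already at 0 h, at 9.74 and 9.63 against 9.90 and 9.91, though not called. No interaction at 2 h was called for any of the 3. The comparison between the times was added after the data had been seen. The 3 genes were picked by their calls at 2 and 12 h on the same arrays. A called difference between the times was thus nearly fixed by the selection and adds no support to those calls.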

How the results depend on the processing

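Over the 44 genes and 13 comparisons of the linear model, 180 differences were called, none of which changed sign in any setting, and all 180 had the same direction on both chips. These differences were chosen as called on the same arrays, and each chip holds 1 array of every group. Such agreement in direction was thus nearly fixed by the selection and adds no support. Calls lost numbered 4 without background correction, 13 with arrays scaled to the same mean, 15 with the same 75th percentile, 30 without the filter on dim genes, 9 with a chip block, 49 in fits of only the groups compared and 9 to 39 with 1 array left out, where the group's remaining array takes its spread from the other groups. With only genes above background on all arrays, all 166 called differences that could be fitted were kept. Arrays with the same replicate number also share a chip except in the 12 h control cells. Nothing else in the labels ties them, and their deviations correlated at -0.296 to 0.264 between groups (median 0.017, over 0.1 in 7 of 28 pairs of groups). The replicate block lost 7 of 180 and moved the number of members called at 2 h in control cells from 2 to 1, with no other number moving by over 1.5 times. That number was also 1 without background correction, with the same 75th percentile and with genes above background on all arrays, and 0 without the filter and with only the groups compared. Fits of only the groups compared gave 5 members in place of 9 in control cells at 6 h, 9 in place of 20 with Akti1/2 at 6 h, 7 in place of 14 for Akti1/2 against control at 2 h, 8 in place of 18 at 6 h, and 6 in place of 10 for the interaction at 6 h, which was also 6 without the filter. The cause was not tested beyond the smaller number of arrays in these fits.

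With 1 array left out, the number of members called ranged from 0 to 2 in control cells at 2 h, 4 to 9 at 6 h (4 without control 0 h replicate 1 or 2, or 6 h replicate 1) and 6 to 13 at 12 h (6 without control 12 h replicate 1). It ranged from 6 to 15 for Akti1/2 against control at 2 h (6 or 7 without either control array or Akti1/2 replicate 2 of that time) and from 0 to 8 for the interaction at 2 h (0 to 3 without any 1 of the 8 arrays in it). It ranged from 4 to 11 for the interaction at 6 h (4 to 6 without control 0 h replicate 1 or 2, Akti1/2 0 h replicate 1 or control 6 h replicate 1) and from 11 to 19 at 12 h (11 without control replicate 1 at 0 h or at 12 h). The other comparisons stayed within 1.5 times.

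The number of members beyond the J5 threshold depended on the setting. With a threshold of 10 it was 4, 8 and 8 in control cells at 2, 6 and 12 h and 9, 14 and 13 with Akti1/2. With 30 it was 1 and 2 in control cells at 2 and 6 h and 1, 3 and 4 with Akti1/2. Over genes above background on at least 2 arrays it was 1, 0 and 1 without the inhibitor and 1, 2 and 2 with it, and with the same mean it was 1 in control cells at 2 h. With 1 array left out it ranged from 1 to 2 at 2 h and 2 to 4 at 6 h in control cells. Another scaling shifted the median of all genes by over 0.1 for Akti1/2 against control at 2 h (0.122 with the 75th percentile), for the interaction at 6 h (0.119 with the same mean) and for the effect of Akti1/2 at 12 h minus that at 2 h (-0.105 with the 75th percentile). Dim signal limits Tuba4a, Tuba3b, Tubb4 and Actr3b.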

Other observations

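Tubb4, a dim beta tubulin, was above background on 1 of 2 arrays in control cells at 6 and 12 h and in Akti1/2 cells at 6 h, and was called only between 12 and 0 h with Akti1/2 (-0.46, limma adjusted p = 0.0471). Stmn1 varied between replicate arrays more than any other member: its log2 level in control cells was 7.28 and 8.12 at 0 h, 8.05 and 8.52 at 2 h, 8.29 and 7.66 at 6 h, then 7.49 and 7.72 at 12 h. With Akti1/2 it was 8.10 and 7.16 at 0 h, 8.14 and 8.41 at 2 h, 6.49 and 7.37 at 6 h, then 6.49 and 7.17 at 12 h. At 6 and 12 h the Akti1/2 arrays lay below the control arrays of the same time, and these differences were not called (-1.05 at 6 h, adjusted p = 0.0522). For Actr1b, Actr10, Arpc3 and Arpc5l no comparison was called.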
